A study of Homo sapiens with 3 samples.

Results

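The long arm of chromosome 19 (19q) carried 895 of the 23641 8-oxodG peaks deposited for G0-arrested MCF10A cells, taken as the peaks of chromosome 19 with a summit at or past base 28500000 of hg18. 8-Oxo-7,8-dihydro-2'-deoxyguanosine (8-oxodG) is guanine oxidised in DNA. The 3 samples, from 2 experiments, formed 1 group of a single established line of non-tumorigenic human breast epithelium. They were labelled as G0-arrested, with no treatment named, and were immunoprecipitated with an antibody against 8-oxodG. They were deposited as 1 combined list, so no value below has a replicate error. The labels used here do not say how the arrest was reached, and a peak list holds no expression by which the labelled cell type could be checked.

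Guanine has the lowest oxidation potential of the DNA bases, and reactive oxygen species turn it into 8-oxodG. The glycosylase OGG1 removes the lesion and starts base excision repair, and a lesion left in place can pair with adenine and give a G-to-T change. Chromosome 19 is known as the most gene-dense human chromosome and as rich in G and C. Its long arm holds large gene families laid out in tandem, among them zinc finger repressors, CYP2 enzymes, carcinoembryonic antigens, kallikreins and immune receptors.

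Peaks were denser on 19q than on any of the other 39 autosomal arms with sequence. The arm had 28.5 peaks per sequenced Mb (95% exact Poisson interval 26.7 to 30.4, counting error only), over 31.4 Mb in 1 contig from 32423623 to 63806651. The edge of the arm lies in the unsequenced centromere, with 24154394 as the nearest summit on 19p and 32894141 as the first on 19q. The short arm (19p) was next, with 533 peaks and 21.8 per Mb (20.03 to 23.8). The other autosomes together had 21178 peaks and 8.07 per Mb (7.96 to 8.18). The ratio of 19q to them was 3.54 (exact interval 3.30 to 3.78) and that of 19q to 19p 1.31 (1.17 to 1.46). Since the samples were combined, these intervals describe counts within 1 list, and no test over samples was possible. Peaks covered 1.76% of the sequence of 19q, 1.47% of 19p and 0.431% of the other autosomes.

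The arm also had a high background. The background at a summit is the number of fragments expected there without enrichment, worked out from the deposited pileup (fragments stacked at the summit) and fold enrichment. Its median was 1.57 fragments on 19q, 1.01 on 19p and 0.944 on the median autosomal arm. Only 21p, with 9 peaks, had a higher arm median (4.63), and other arms came close, with 1.48 on 8q, 1.42 on 8p, 16q, 20p and 20q, and 1.37 on 16p. The interval of the median on 19q was 1.42 to 1.57. On 19q 522 peaks (58.3%) lay over a background of at least 1.4 fragments, against 31.7% on 19p and 30.3% of all autosomal peaks. Summits at the lowest background in the list, 0.460, numbered 1 on 19q (0.112%), 17 on 19p (3.19%) and 848 on the other autosomes (4.004%). More copies of the arm in the libraries and more 8-oxodG on each copy cannot be told apart in this list. Divided by the arm's relative background, 19q had 17.1 peaks per Mb and 19p 20.5, which turns their order (ratio 0.836), while 19q stayed above the other autosomes (2.23). That peaks scale in proportion to the background was not tested.

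**Figure D1:**
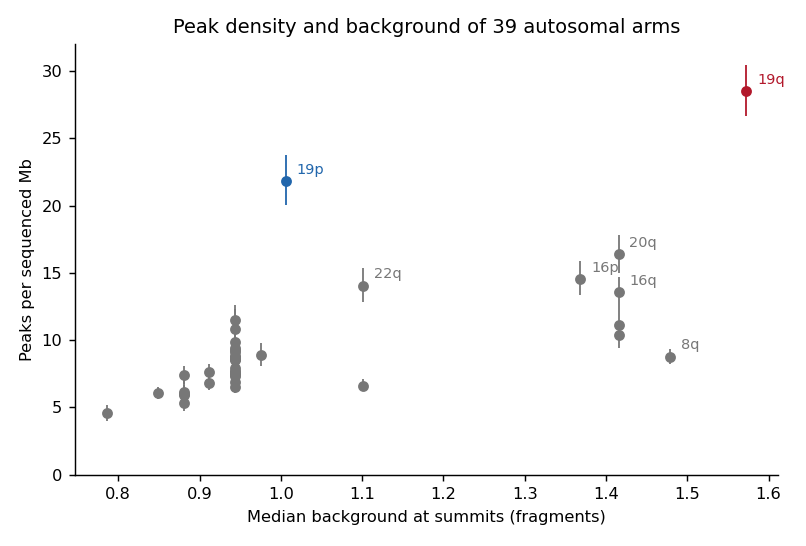
Peaks per sequenced Mb (vertical axis, bars are 95% exact Poisson intervals) against the median background at summits in fragments (horizontal axis), 1 point per autosomal arm, for 39 arms with 21p left out. The point of 19q lies highest on both axes (28.5 peaks per Mb, 1.57 fragments), whereas 19p is second in density (21.8) at a background of 1.01.

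Along the arm, the count per 1 Mb step varied. Steps lie on whole Mb of hg18, and all 32 were at least 50% sequenced. The count had a median of 25, quartiles of 18.75 and 38.5, and a range from 0 to 57. On 19p the median was 25.5, so by median the steps of 19q were no fuller than those of 19p. The means were 28.0 (standard deviation 14.7) on 19q and 22.1 (11.4) on 19p. The median on the other autosomes was 7. In 21 of the 32 steps (65.6%) there were at least 20 peaks, against 15 of 24 steps (62.5%) on 19p and 5.79% of all autosomal steps. The highest step on the other autosomes held 43, and 7 steps of 19q exceeded it. The 5 fullest steps of the arm started at 55 Mb (57 peaks), 47 Mb (53), 54 Mb (50), 59 Mb (49) and 60 Mb (47). The 5 emptiest started at 42 Mb (0), 32 Mb (1 peak in 0.576 Mb of sequence), 39 Mb (13), 33 Mb (15), and 41 and 63 Mb, which tied at 16. Even the step at 39 Mb held more peaks than 84.7% of the steps on the other autosomes.

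The arm opened sparsely beside the centromere. The first peak lay 470.4 kb from the first sequenced base, and the step at 33 Mb had 15. In 19q12, a variable heterochromatin band, the next steps then had 30, 25 and 25 peaks, at 34, 35 and 36 Mb. The band had 98 peaks, or 20.96 per Mb (17.01 to 25.5). Its counterpart across the centromere, 19p12, had 27 peaks and 5.84 per Mb (3.85 to 8.50), and the intervals do not overlap. Thus the fall towards the centromere seen on the short arm, where steps from 19 to 23 Mb had 3 to 9 peaks, had no match of that length on the long arm.

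From 37 to 45 Mb the counts were moderate and broken by the largest empty stretch. Steps starting at 37, 38 and 39 Mb had 17, 19 and 13 peaks, and 19q13.11 had 17.5 per Mb (13.22 to 22.7). The steps at 40 and 41 Mb had 29 and 16, that at 42 Mb had none, and those at 43 and 44 Mb had 30 and 19. No peak was listed from 41797800 to 43044843, a stretch of 1.25 Mb that begins in 19q13.12, a band known for a cluster of zinc finger genes. It was 36.1 times the mean distance between summits on the arm, and 15 longer stretches without a peak were found on the autosomes. By counting error, the 0 in the step at 42 Mb allows up to 3 peaks per Mb as a one-sided limit, and the two-sided interval reaches 3.69. Whether reads map there was not tested. The other part of 19q13.12 was not sparse, and the band as a whole had 36 peaks, or 13.333 per Mb (9.34 to 18.5). The small band 19q13.13 had 6 peaks in 0.400 Mb (15 per Mb, 5.50 to 32.6).

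The density then climbed through 19q13.2, a band known for CYP2 genes, whose enzymes oxidise drugs and steroids, and for carcinoembryonic antigen genes, which encode adhesion molecules. Steps at 45, 46 and 47 Mb had 35, 43 and 53 peaks. The band had 174 peaks and 39.5 per Mb (33.9 to 45.9), and the median distance between summits was 10.3 kb. The next band, 19q13.31, had fewer: 40 peaks, or 18.2 per Mb (12.99 to 24.8), with 20 in each of the steps at 48 and 49 Mb. It is known for the pregnancy-specific glycoprotein family and for zinc finger genes. The next longest stretches without a peak began in it, 613.4 kb from 48995665 to 49609062 and 515.2 kb from 48008682 to 48523930.

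A second and broader rise ran from 51 to 57 Mb. The steps at 50, 51 and 52 Mb had 22, 29 and 37 peaks, and those at 53, 54, 55 and 56 Mb had 46, 50, 57 and 46. The stretch from 51 to 57 Mb, bounded after the steps were seen, held 29.6% of the arm's peaks in 19.1% of its sequence. In 19q13.32 the density was 33.2 per Mb (27.6 to 39.5), from 126 peaks. In 19q13.33, where the kallikrein proteases and SIGLEC receptors are encoded, it was 45.5 (38.995 to 52.8), from 173 peaks, with a median distance of 9.68 kb. By count that band also held the most peaks of at least 1 kb on 19q, 22 among its 173. There were 13 among 126 in 19q13.32 and 11 among 98 in 19q12, beside 80 (8.94%) over the arm.

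Beyond 57 Mb a dip, another rise and a lower end followed. The steps at 57 and 58 Mb had 29 and 20 peaks, and 19q13.41, with further zinc finger and SIGLEC genes, had 28.0 per Mb (20.2 to 37.8). Those at 59 and 60 Mb had 49 and 47, in 19q13.42, the band of the leukocyte receptor complex, whose genes encode receptors of natural killer and myeloid cells. This band had 96 peaks, or 41.7 per Mb (33.8 to 50.97). The last steps, at 61, 62 and 63 Mb, had 19, 18 and 16 (in 0.807 Mb), and 19q13.43, another zinc finger band, had 19.9 per Mb (14.7 to 26.4).

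The outermost part of 19q was therefore less dense than the rest of the arm. Its last 2 Mb had 43 peaks, or 21.5 per Mb (15.6 to 28.96), against 29.0 over the remainder, a ratio of 0.741. Of 39 arms with at least 10 Mb of sequence, 33 had a denser outermost 2 Mb than the rest, and the median ratio was 1.74. Only 18p (0.558) and 3p (0.580) had a lower ratio than 19q. On 19p the ratio was 1.13, from 24.5 per Mb (18.1 to 32.4) in the outermost 2 Mb. In absolute terms the end of 19q still ranked 11th of the 39, and the median end had 17.5 per Mb.

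**Figure D2:**
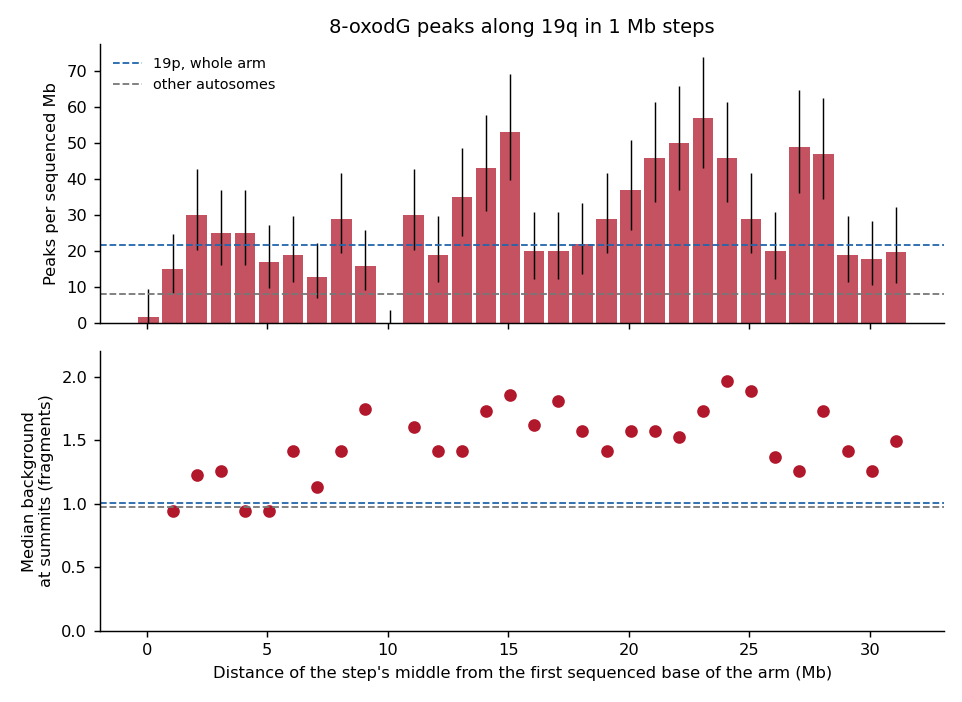
Upper panel: peaks per sequenced Mb in each 1 Mb step of 19q (bars, with 95% exact Poisson intervals) against the distance of the step's middle from the first sequenced base of the arm; dashed lines give 19p (21.8) and the other autosomes (8.07). Lower panel: the median background at summits in each step with at least 2 peaks, in fragments, with the same dashed comparisons at 1.01 and 0.975. The 3 highest rises, at up to 53, 57 and 49 peaks, have steps of 20 peaks between them, and the background is mostly above 1.4 fragments past the proximal part.

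Density was also summed by stain class. The 5 Giemsa-negative bands together had 31.2 peaks per Mb and the 5 lightly stained gpos25 bands 28.8, while both classes held dense and sparse members. The single variable band, 19q12, was lower at 20.96. Among Giemsa-negative bands 19q13.11 (17.5) and 19q13.33 (45.5) were farthest apart among those of at least 1 Mb, and among gpos25 bands 19q13.12 (13.333) and 19q13.2 (39.5).

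Background and density were set side by side in stretches of the arm. From 32 to 38 Mb the median background was 1.04 fragments (exact interval of the median 0.944 to 1.26), near that of 19p, and from 38 Mb to the end it was 1.57 (1.54 to 1.64). The stretch from 38 to 45 Mb had a background of 1.42 and 18 peaks per Mb (14.99 to 21.4), beside 20.3 (16.7 to 24.4) in the stretch before it, and these density intervals overlap. Of the dense stretches, that from 45 to 48 Mb had a background of 1.73 (1.57 to 1.86) and that from 59 to 61 Mb one of 1.45 (1.26 to 1.76). The sparse stretch from 48 to 51 Mb had 1.68 (1.42 to 1.89), and these intervals overlap. Across the 30 steps with at least 2 peaks, which share 1 list and its depth, density and median background had a Spearman's rho of 0.430. These stretches were bounded after the steps had been seen.

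Neighbouring summits on 19q were a median of 16.2 kb apart (exact interval 14.2 to 18.4), with quartiles of 5.39 and 38.6 kb. The median was 20.9 kb on 19p (17.3 to 22.8) and 66.7 kb on the other autosomes (65.1 to 68.4). A summit within 5 kb of another was found for 359 of the 895 peaks (40.1%), against 33.2% on 19p and 15.2% of all autosomal peaks. Distances over 100 kb made up 7.49% on 19q, 12.3% on 19p and 38.6% elsewhere. The median was 0.469 of the mean distance on 19q, 0.468 on 19p and 0.546 on the other autosomes. The last value pools 38 arms of differing density. The ratio was not worked out for each of those arms, so it is not shown to be particular to chromosome 19. No peaks overlapped, and joining those with at most 1 kb between them left 811.

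**Figure D3:**
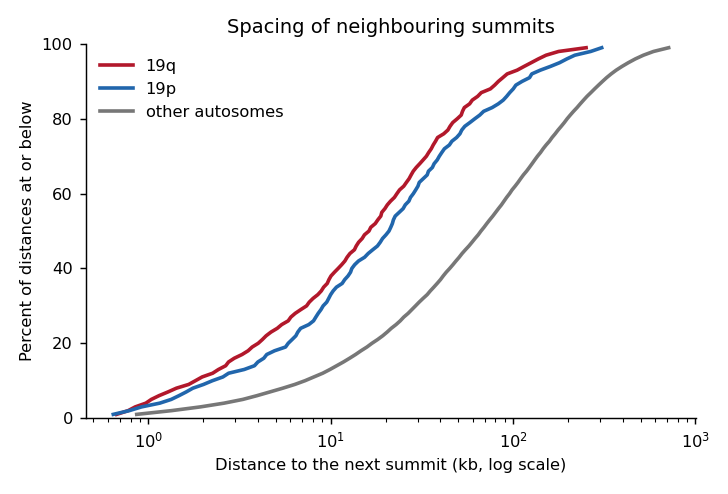
Percent of distances between neighbouring summits (vertical axis) at or below a given distance in kb (horizontal axis, log scale) for 19q, 19p and the other autosomes. The curve of 19q lies to the left throughout most of its range, with medians of 16.2, 20.9 and 66.7 kb.

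The closest summits, 375 bp apart, were those at 59275187 and 59275562 in 19q13.42, with pileups of 21 and 17 and 86 bases between the peaks. Further pairs were 409 bp apart in 19q13.33 (53864210), 468 bp in 19q13.43 (63742317), 564 bp in 19q13.42 (59932050) and 573 bp in 19q13.2 (47391032). The tightest 5 peaks in a row spanned 6106 bp from summit to summit, within 47113075 to 47119881 in 19q13.2, with pileups of 29 to 83. Next came 9096 bp in 47185390 to 47195666 of the same band, with pileups of 28 to 100, and 9272 bp in 59611801 to 59621679 of 19q13.42, with pileups of 14 to 99. Of the 100 tightest separate runs of 5 peaks on the autosomes, 29 were on 19q and 8 on 19p. The long arm held 3.96% of autosomal peaks and 1.17% of autosomal sequence. Tight runs are more frequent where peaks are denser, and an excess beyond the density of 19q was not tested.

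Peaks of 19q had a higher median width and pileup than those of the other autosomes pooled. The median width was 531 bp (exact interval 503 to 551; quartiles 419 and 720.5), against 544 bp on 19p (523 to 575) and 449 bp elsewhere (446 to 451). The median pileup was 33 fragments (31 to 35; quartiles 22 and 56), against 28 (26 to 30) and 25 (24 to 25). Other arms were as tall or taller, with medians of 37 on 16q, 34 on 16p and 20q, and 33 on 8p, and 163 on 21p. The authors' fold enrichment differed less, with medians of 12.6 on 19q (12.04 to 13.5), 13.18 on 19p (12.5 to 14.2) and 11.6 elsewhere (11.5 to 11.7). In the upper tail, 52 peaks of 19q (5.81%) had a pileup of at least 100, against 3.94% on 19p and 2.54% of all autosomal peaks. Peaks of at least 1 kb numbered 80 (8.94%) on 19q and 79 (14.8%) on 19p, against 5.62% over all autosomes. Fold enrichment of at least 30 was reached by 85 peaks of 19q (9.50%) and 12.8% of those on 19p, against 7.6% over all autosomes.

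The lowest fold enrichment in the list was 7.001, so the pileup at which a peak is listed rises with its background, and peaks were also set side by side within ranges of background. At 0.9 to 1.2 fragments the median pileup was 24 on 19q (21 to 28, 160 peaks) and 23 elsewhere (23 to 24). At 1.2 to 1.5 fragments it was 27 (24 to 31) and 28 (27 to 28), and at 1.5 to 2 fragments 34 in both. Up to 2 fragments, the higher pileup of 19q was thus not seen at like background. At 2 to 3 fragments it was 50 on 19q (44 to 56) and 42 elsewhere (41 to 43), with intervals that do not overlap. The short arm was as high there, at 53 (45 to 62). Over 3 fragments the median was 60 on 19q (53 to 66) and 55 elsewhere (53 to 56), and these intervals overlap.

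Widths gave the same picture for 19q and another for 19p. At 1.5 to 2 fragments the median width was 524 bp on 19q (498 to 564), 522 bp elsewhere (513 to 531) and 764 bp on 19p (706 to 871). At 1.2 to 1.5 fragments it was 472 bp (451 to 499), 469 bp (463 to 475) and 629 bp (513 to 716). At like background, peaks of 19p were therefore wider than those of 19q in these ranges, although the arms' overall medians differed by less than their intervals. At like pileup, both arms of chromosome 19 were above the other autosomes from 30 to 79 fragments. At 30 to 49 fragments the median width was 563 bp on 19q (531 to 598) against 513 bp (510 to 517). At 50 to 79 it was 708 bp (663 to 740) against 635 bp (626 to 648). The values of 19p were 683.5 bp (605 to 741) and 735 bp (683 to 819). At 10 to 19 fragments 19q had 351 bp (327 to 373) against 350 bp (348 to 352).

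**Figure D4:**
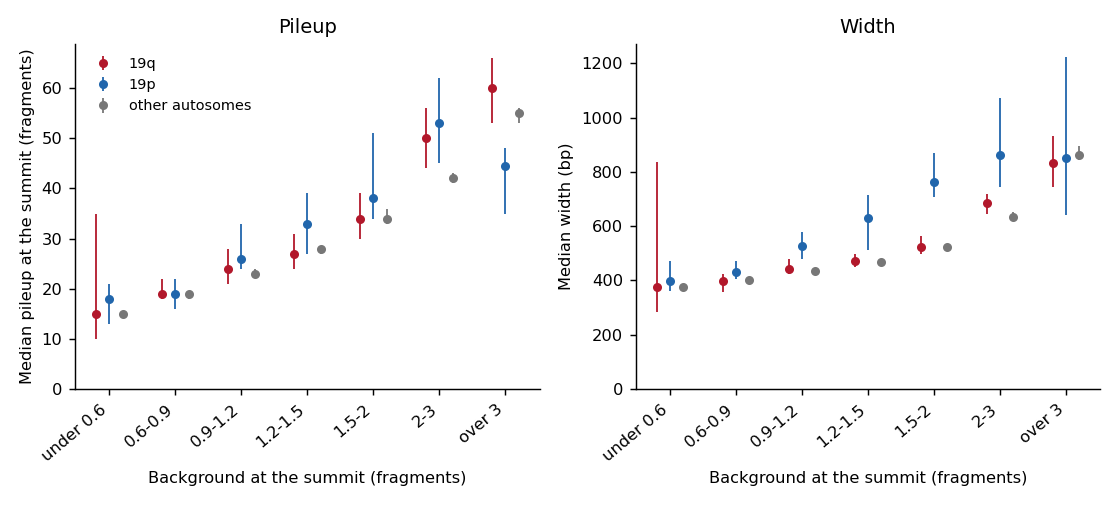
Median pileup in fragments (left) and median width in bp (right), with exact 95% intervals of the median, for peaks grouped by the background at the summit (horizontal axis, fragments), on 19q, 19p and the other autosomes. Up to 2 fragments the medians of 19q lie beside those of the other autosomes, and 19p has the widest peaks from 0.9 to 3 fragments.

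The shares of peaks by background show the same shift as the medians. Under 0.6 fragments lay 16 peaks of 19q (1.79%), against 12.2% on 19p and 14.1% elsewhere, and at 2 to 3 fragments 203 peaks of 19q (22.7%), against 9.57% and 8.55%. The length of sequence at each level of background is not known from a peak list, so no density at like background could be computed.

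The density of 19q was above that of the other autosomes at each least fold enrichment tried, and not at each above that of 19p. These counts are nested, since stronger peaks are also among the weaker limits. Counting peaks of at least 20-fold enrichment, 19q had 218 (6.95 per Mb), 4.30 times the other autosomes (3.73 to 4.93) and 1.25 times 19p (1.002 to 1.56). Counting those of at least 40-fold, 19q had 35 and 19p had 32, with ratios of 5.48 (3.78 to 7.72) and 0.85 (0.511 to 1.42). Among the strongest peaks, a difference in density between the arms of chromosome 19 was not detectable at these counts.

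**Figure D5:**
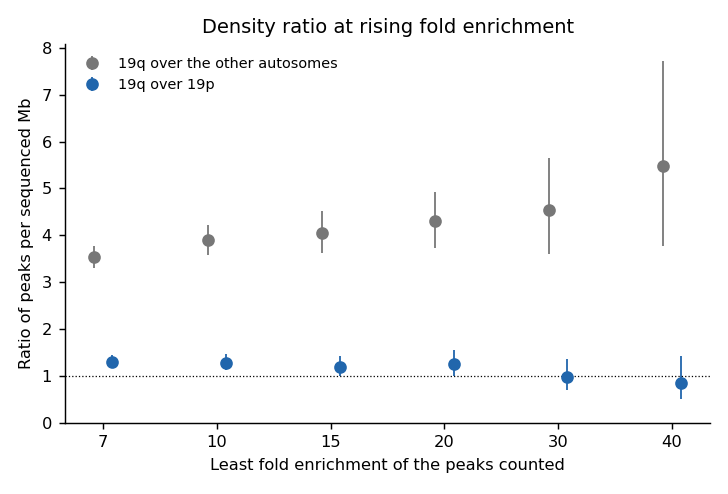
Ratio of peaks per sequenced Mb (vertical axis, with exact 95% intervals) among peaks of at least the fold enrichment given on the horizontal axis, for 19q over the other autosomes and 19q over 19p; the dotted line marks 1. The first ratio goes from 3.54 to 5.48 and stays above 1, and the second is 1.31 with all peaks and 0.85 at 40-fold, with an interval that includes 1.

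The single strongest peaks of 19q were spread over the arm. The highest fold enrichment was 63.76, in 19q13.42 (chromosome 19, 60269333 to 60270046), with a pileup of 149 over a background of 1.35. It ranked 16th among autosomal peaks. The second, 61.2-fold, lay in the sparse band 19q13.11 (37240611 to 37241291), with a pileup of 118 over 0.944 fragments. The third, 58.4-fold, was in 19q13.43 (62220304 to 62221712), and the fourth to sixth were in 19q13.32, at 53186120 (58.1-fold), 53220350 (55.0) and 53537099 (53.1). The remaining peaks among the 10 strongest started at 34197886 in 19q12 (52.4), 47092317 in 19q13.2 (52.3), 61505273 in 19q13.43 (50.7) and 49777481 in 19q13.31 (50.6). None of these 10 lay in 19q13.33, the densest band, which held 173 of the arm's 895 peaks. The sparse bands 19q13.11, 19q13.31 and 19q13.43, with 56, 40 and 48 peaks, together supplied 4 of them. Whether these small counts depart from the bands' shares of peaks was not tested.

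By pileup the order was different, and 19q13.33 led with its neighbour. The tallest peak, with 176 fragments (46.2-fold, background 2.83), was in 19q13.32 at 53592209 to 53593500. The next had 157 (55686296 to 55688371), 156 (55692229 to 55695460) and 155 fragments (55874682 to 55875543), all in 19q13.33, and 154 in 19q13.32 (52616598 to 52618771). Each lay over a background of at least 2.202 fragments. The first of the 3 peaks in 19q13.33 and the second belong to 1 run of 5 peaks within 55682657 to 55695460, whose summits span 9314 bp and whose median width is 1874 bp.

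The arm held 4 of the 100 widest autosomal peaks (4%), 28 of the 500 widest (5.6%) and 63 of the 1000 widest (6.3%). Its share of all autosomal peaks was 3.96%. The widest spanned 3330 bp (34694409 to 34697738, 19q12; pileup 112, 44.5-fold), followed by 3232 bp in 19q13.33 (from 55692229), 3179 bp in 19q13.13 (from 43068843), 2713 bp in 19q12 (from 33464135) and 2429 bp in 19q13.12 (from 40479486). The last of these lay over a background of 6.10 fragments, the highest on 19q, and reached 11.5-fold. The widest on 19q ranked 57th among autosomal peaks, and the other autosomes, with 21178 peaks against 895, reached 55899 bp. Peaks were not assigned to genes and no peak sequence is shown, because no genome or gene annotation of hg18 was used here.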

How the data were processed

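The authors deposited 1 peak list for all 3 samples, with positions on hg18, widths, summits and a pileup signal per peak, and, per the file headers, fold enrichment, p and q. The submitters' processing notes name BWA, SAMtools and bedtools. The caller, its control, the pooling and the read depth are named in none of the sources read here. In the deposited table, the fold, p and q columns had lost their decimal points. Those of fold and p were restored from the Poisson relation of p to pileup and background, (pileup + 1) / fold enrichment − 1. The match was within 0.01 of −log10 p for 23640 of 23641 peaks and for every peak of 19q. For q, the point was placed to give the largest −log10 q below −log10 p, with no further check. The restoring of fold and p was checked on simulated rows.

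Arms and bands came from circlize 0.4.16 and sequenced contigs from IRanges 2.36.0 (R 4.3.3), both for hg18. Computations used Python 3.11.15, numpy 2.4.6, pandas 2.3.3, scipy 1.17.1 and matplotlib 3.10.9. Peaks were placed by summit, and distances were taken within a contig and arm. Intervals are 95% exact Poisson, exact conditional binomial (ratios), Clopper-Pearson or order-statistic (medians). They cover counting error only and treat neighbouring peaks as independent. No test was run. Mappability was not considered.

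Members and settings were chosen with earlier results of these data known. The peaks named were the 10 of highest fold enrichment, the 5 widest, the 5 tallest and the 5 closest pairs. The 5 fullest and emptiest steps, every band and the 3 longest empty stretches and 3 tightest runs of 5 peaks were also named.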

Additional observations from a re-analysis of the deposited data

How the results depend on the processing

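The density of 19q was above that of the other autosomes in all 10 alternatives. The ratio was 3.29 with peaks within 1 kb joined, 3.92 and 4.31 among peaks of at least the list's median fold enrichment and median −log10 q, 3.28 per Mb of arm with gaps, 4.09 by covered bases and 2.23 scaled by arm background. The ratio to 19p was 1.17 without centromeric and variable bands and reversed to 0.836 when scaled by background, by construction of the higher background of 19q. Peaks per Mb on 19q were 25.8 joined, 15.7 and 17.2 above the medians of fold and q, 25.3 with gaps, 17.1 scaled and 26.2 without 19q13.33. Covered bases give no number of peaks and were used in ratios only. The median distance was 19.03 kb joined and 29.6 kb above the median fold. Above the medians of fold and q, width was 648.5 and 653 bp (499 bp under 1 kb), pileup 53 and 50, and background 1.73 above the median q. Above the median fold, with fewer peaks, 9 steps had at least 20. The other alternatives moved values by less than their intervals, or by under 1.5 times for steps. Leaving out a sample was not possible, because the list holds no value per sample. Placement by midpoint, run for the density, both ratios and the number of steps, changed none of these 4.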

Other observations

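Peaks of 19q more than 50 kb from any other had the lowest median pileup, width and background of 4 classes by distance, and the background was lower in each farther class. The median pileup was 34 (exact interval 31 to 39) for the 192 peaks with a summit within 2 kb, 36 (31 to 39) at 2 to 10 kb, 32 (29 to 35) at 10 to 50 kb and 25 (19 to 30) for the 56 peaks more than 50 kb from any other. Their median widths were 545.5, 536, 525.5 and 436.5 bp, and the median background was 1.73, 1.57, 1.42 and 1.23 fragments in the same order. On the other autosomes the isolated peaks were also the smallest (22 fragments, 427.5 bp). On 19p the background did not fall with distance, at 0.944, 1.04, 1.04 and 0.944 fragments in the same order. Its 46 isolated peaks had a median pileup of 24.5 (16 to 33), an interval that overlaps those of its nearer classes.

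Fold enrichment hardly ran together in neighbours. Over the 211 pairs of neighbouring summits within 5 kb on 19q, Spearman's rho was 0.0870, and over 506 pairs at 5 to 50 kb 0.00990; these pairs share peaks and 1 list. The background of neighbours within 5 kb had a rho of 0.189 on 19q and 0.260 on 19p (97 pairs). The other autosomes, which pool 38 arms of differing median background, had 0.444.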
